A study of Saccharomyces cerevisiae with 14 samples.

Results

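The ribosome biogenesis members are 40 genes of budding yeast, Saccharomyces cerevisiae, whose proteins process ribosomal RNA and assemble the ribosomal subunits. They were taken by gene name from a fixed list of rRNA processing and assembly factors, and make up 40 of the 5449 yeast genes that the arrays measured. Every member had 1 probe set, and none shared its probe set design with a near-identical gene. The probe sets were read on 14 arrays, 1 per culture, in 7 groups of 2.

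Every culture was a MATa haploid of the marker genotype his3D200 leu2D1 met15D0 trp1D63 ura3-167, grown in rich YPD medium and harvested in log phase. The deletion groups were npt1Δ, pnc1Δ, bna1Δ and tna1Δ, each carrying the kanMX4 cassette in place of the named gene. A further group was the wild type grown with 5 mM nicotinamide, and the untreated wild type was hybridised as a pair coded ML1 and a pair coded ML8. The series describes the 2 arrays of a group as duplicate cultures, and their titles carry the letters A and B. The labels do not explain ML1, ML8 or the letters. NPT1 and PNC1 are NAD+ salvage genes, BNA1 serves NAD+ synthesis from tryptophan, TNA1 imports nicotinic acid, and nicotinamide inhibits the sirtuin deacetylases. The question asked here was whether the ribosome biogenesis genes differed in level under these changes.

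In yeast, RNA polymerase I transcribes a long ribosomal RNA precursor in the nucleolus. The small subunit processome, built from the UTP-A and UTP-B complexes, the U3 small nucleolar RNA and many further factors, folds and cleaves the 5′ part of this precursor. Other factors, among them GTPases, DEAD-box helicases and the Nop7-Erb1-Ytm1 complex, assemble the large subunit. Transcripts of these factors are known to be regulated together with growth rate and nutrients, and to be lowered together in the yeast stress response.

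All values are log2 signals from the authors' GCRMA processing, and a difference of 1 is a 2-fold difference. A gene was called when its adjusted p, by limma with Benjamini-Hochberg adjustment over 5498 probe sets, was under 0.05. Array medians lay between 9.75 and 9.84, and the members lay between 9.28 and 14.79, all above the background limits of 2.22 to 2.26. Each deleted gene was at or near background in its own strain, with 2.28 for TNA1 on array B of tna1Δ as the highest value. The 6 a-cell markers lay at 11.70 or above on all 12 arrays without nicotinamide. On the nicotinamide arrays they lay lower, for example at 9.33 and 7.05 for the pheromone gene MFA1. Of 4 alpha-cell markers, the receptor gene STE3 lay between 2.45 and 3.35 on the wild-type, pnc1Δ, bna1Δ and tna1Δ arrays, at 7.66 and 7.58 in npt1Δ and at 7.71 and 7.96 with nicotinamide. It rose by 4.85 ± 0.21 and 5.06 ± 0.21 (SE; limma adjusted p = 1.09e-07 and 4.02e-08), and no other alpha marker was called against wild type. The alpha pheromone gene MF(ALPHA)1 lay at or near background on all arrays, at 2.47 or below. The part of these markers in the member differences was not tested. In bulk RNA, fewer cells of a type and less RNA per cell cannot be told apart.

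None of the 40 members was called in any of the 5 comparisons with the 4 pooled wild-type arrays. Over all probe sets the share called was 4.2% for npt1Δ, 2.24% for pnc1Δ, 0.0182% each for bna1Δ and tna1Δ, and 15.9% for nicotinamide. At an unadjusted p under 0.05, 4 members were lower in npt1Δ, 1 was higher in pnc1Δ, 2 were higher with nicotinamide, and none passed in bna1Δ or tna1Δ. The shares of all probe sets at that p, in either direction, were 15.5%, 14.9%, 27.6%, 3.13% and 3.58%. In the members' direction they were 8.24% lower in npt1Δ, 6.09% higher in pnc1Δ and 14.1% higher with nicotinamide. The smallest adjusted p of any member was 0.112 in npt1Δ, 0.281 in pnc1Δ, 1 in bna1Δ, 0.79 in tna1Δ and 0.0747 with nicotinamide. The moderated F test across the 6 conditions called none of the members either, against 13.6% of all probe sets. At an unadjusted p under 0.05 it passed 1 member, NOP7, against 26% of all probe sets.

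Small differences in the same direction were frequent, but their size changed as single arrays were left out. In npt1Δ, 39 of 40 members had a mean below wild type, with a median difference of -0.16 against -0.03 over all probe sets, of which 58.4% lay below. Without array B of npt1Δ, 28 lay below and the median was -0.04, against -0.04 over all probe sets. Without array A of npt1Δ the median was -0.28, and without array A of ML1 it was -0.10. In tna1Δ, 36 members lay below wild type with a median of -0.10, as did 58% of all probe sets, with a median of -0.02. Without array B of tna1Δ 20 members lay below with a median of 0.0023. Without array A of tna1Δ the member median was -0.25, and without array A of ML1 it was -0.02. In pnc1Δ 29 members lay above wild type with a median of 0.07, which turned to -0.03 without array A of pnc1Δ and was 5e-04 with ML1 alone as control. With nicotinamide 32 lay above with a median of 0.05, which turned to -0.03 with ML1 alone and was 0.12 with ML8 alone. In bna1Δ, 24 lay below and 16 above, with a median of -0.0069 that ranged from -0.10 to 0.08 as arrays were left out in turn. Of all probe sets, 47.9% lay above wild type in pnc1Δ, 48.6% with nicotinamide and 61.8% in bna1Δ. Their medians were -0.0056, -0.0045 and 0.02. Leaving out an array also makes the letters unequal between the groups compared. The members were higher on arrays A, by a median of 0.23, and the part of the letter in these changes was not tested. Against wild-type arrays of the same letter, npt1Δ medians were -0.16 on arrays A and -0.19 on arrays B. In tna1Δ they were -0.08 and -0.11. Against ML8 alone, the medians on arrays A were -0.04 in npt1Δ and 0.03 in tna1Δ.

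Among the 6 condition means, npt1Δ gave the lowest value for 30 members, and nicotinamide and pnc1Δ gave the highest for 19 and 16. These comparisons share the 4 wild-type arrays, and no condition in this order was separated from wild type by the test for any member.

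**Figure D1:**
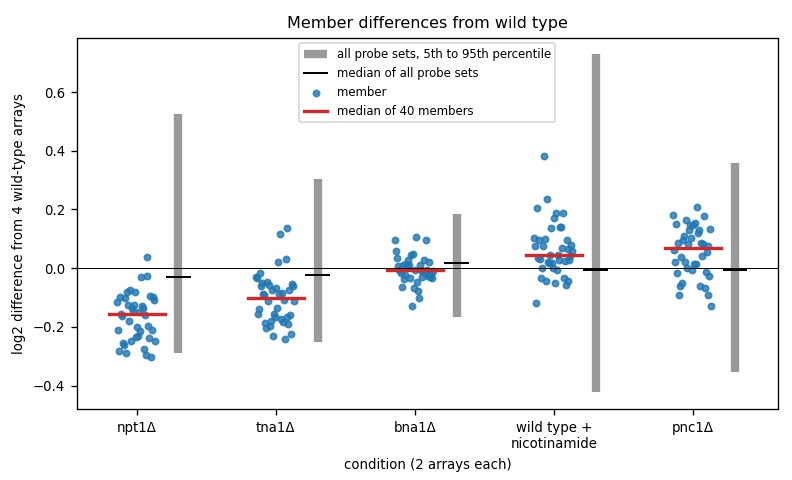
Log2 difference of each of the 40 members from the 4 wild-type arrays (vertical axis) in 5 conditions of 2 arrays each (horizontal axis). Blue points are members, red lines their medians, grey bars the 5th to 95th percentile of all probe sets and black lines the median of all probe sets. The npt1Δ points lie below 0 apart from 1 member, and the medians run from -0.16 in npt1Δ to 0.07 in pnc1Δ.

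Few members had both arrays of a condition beyond all 4 wild-type arrays. In npt1Δ, 4 members lay wholly below this range, namely NOP58, UTP22, RRP5 and NOP7, and none lay above. The same held for 13.3% of all probe sets below and 9.42% above. In pnc1Δ, NOP1 and NOP7 lay above and no member below, where the shares of all probe sets were 9.79% above and 13.4% below. With nicotinamide, NOP7 and NOP16 lay above and none below, against 16.4% and 16.7% of all probe sets. No member lay outside in bna1Δ, where 5.4% of all probe sets lay above and 2.09% below. None did so in tna1Δ, where the shares were 4.22% above and 6.58% below. In each case the members' share was below that of all probe sets.

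The members of the UTP-A complex, which binds the 5′ end of the nascent precursor, were UTP4, UTP5, UTP8, UTP9, UTP10 and UTP15. All 6 lay below wild type in npt1Δ with a median of -0.24, and all 6 lay below it in tna1Δ with a median of -0.12. None of them passed the test. UTP15 had the largest npt1Δ difference of all members. UTP15 gave 12.46 and 11.96 on arrays A and B of the ML1 pair, 11.98 and 11.74 on the ML8 pair, and 11.86 and 11.60 in npt1Δ. It gave 12.12 and 11.77 in pnc1Δ, 12.14 and 11.97 in bna1Δ, 12.08 and 11.67 in tna1Δ, and 12.00 and 11.98 with nicotinamide. Array A was the higher of the pair in every group, and the npt1Δ values overlapped the wild-type range. The npt1Δ difference of UTP15 was -0.30 ± 0.19 (SE, 2 against 4 arrays; limma adjusted p = 0.484), with a 95% interval from -0.73 to 0.12.

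Differences of UTP4 and UTP9 were the next to be examined, as the members named for pnc1Δ and bna1Δ. UTP4 gave 11.39 and 10.72 on the ML1 pair, 10.72 and 10.85 on the ML8 pair, and 11.16 and 11.04 in pnc1Δ, so pnc1Δ lay within the wild-type range. Its pnc1Δ difference was 0.18 ± 0.19 (SE; limma adjusted p = 0.706). UTP9 gave 12.35 and 11.87 on the ML1 pair, 11.77 and 11.78 on the ML8 pair, and 12.13 and 11.97 in bna1Δ. Its bna1Δ difference from wild type was 0.11 ± 0.18 (SE; limma adjusted p = 1), and array A of ML1 stood above the other 3 wild-type arrays. Against tna1Δ, where UTP9 gave 11.99 and 11.62, the bna1Δ difference was 0.24 ± 0.21 (SE; limma adjusted p = 0.776).

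The UTP-B members, UTP6, UTP13, UTP18 and UTP21, belong to the complex that joins the processome after UTP-A. All 4 lay below wild type in npt1Δ with a median of -0.25, and none was called. UTP18 gave 11.51 and 11.18 on the ML1 pair, 11.35 and 11.06 on the ML8 pair, 11.37 and 10.89 in npt1Δ, and 11.59 and 11.22 in pnc1Δ. UTP18 values in bna1Δ were 11.53 and 11.10, in tna1Δ 11.44 and 10.97, and with nicotinamide 11.36 and 11.28. Array A was the higher in every group, and no group lay clear of the others.

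The box C/D proteins NOP1, NOP56 and NOP58 are shared by the small nucleolar ribonucleoproteins that methylate ribosomal RNA, and RRP9 is specific to the U3 particle. NOP1, the methyltransferase known elsewhere as fibrillarin, varied little and had the highest mean signal of the members, at 14.685. Across the members, mean signal correlated with the standard deviation over the arrays at a Pearson r of -0.762. With the mean difference of arrays A minus arrays B it correlated at -0.671. Brighter members thus tended to vary less, and the part of signal level in the NOP1 values was not tested. NOP1 gave 14.62 and 14.72 on the ML1 pair, 14.70 and 14.68 on the ML8 pair, 14.63 and 14.67 in npt1Δ, and 14.74 and 14.79 in pnc1Δ. Its bna1Δ values were 14.65 and 14.69, in tna1Δ 14.69 and 14.74, and with nicotinamide 14.65 and 14.64. Both pnc1Δ arrays lay above the wild-type range, by a difference of 0.08 ± 0.05 (SE; limma adjusted p = 0.475). NOP58 lay below that range in npt1Δ, at 14.06 and 13.99 against 14.12 to 14.31 in wild type, a difference of -0.15 ± 0.07 (SE; limma adjusted p = 0.295).

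Among the other small subunit factors, UTP22 had the smallest adjusted p of any member in npt1Δ. UTP22, a component of the UTP-C complex, gave 11.76 and 11.49 on the ML1 pair, 11.58 and 11.50 on the ML8 pair, and 11.36 and 11.29 in npt1Δ. In pnc1Δ it gave 11.46 and 11.52, in bna1Δ 11.56 and 11.57, in tna1Δ 11.54 and 11.52, and with nicotinamide 11.58 and 11.64. Both npt1Δ arrays were the lowest of the 14. The npt1Δ difference of UTP22 was -0.26 ± 0.07 (SE; limma adjusted p = 0.112), with a 95% interval from -0.42 to -0.09.

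NOP14, which acts in small subunit maturation, was named for nicotinamide. NOP14 gave 10.52 and 10.33 on the ML1 pair, 10.69 and 10.56 on the ML8 pair, and 10.90 and 10.62 with nicotinamide. Array B of the nicotinamide pair lay within the wild-type range, and the difference was 0.23 ± 0.13 (SE; limma adjusted p = 0.293). IMP3, which helps U3 pair with the precursor, had the second lowest F of the members, at 0.329 (adjusted p = 0.931). IMP3 gave 11.26 and 10.72 on the ML1 pair, 10.76 and 10.47 on the ML8 pair, 10.87 and 10.57 in npt1Δ, and 10.99 and 10.82 in pnc1Δ. In bna1Δ it gave 11.00 and 10.70, in tna1Δ 10.83 and 10.46, and with nicotinamide 10.90 and 10.74. Its values overlapped across all groups, and array A was the higher in each.

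RRP5 acts in the maturation of both subunits. RRP5 gave 12.61 and 12.50 on the ML1 pair, 12.42 and 12.63 on the ML8 pair, and 12.31 and 12.35 in npt1Δ. In pnc1Δ it gave 12.59 and 12.62, in bna1Δ 12.53 and 12.67, in tna1Δ 12.41 and 12.60, and with nicotinamide 12.57 and 12.66. Both npt1Δ arrays were the lowest of the 14, and array B was the higher of the pair in every group but ML1. The npt1Δ difference of RRP5 was -0.21 ± 0.08 (SE; limma adjusted p = 0.223).

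The 16 large subunit members had a median difference of -0.14 in npt1Δ, where 15 lay below wild type, and of -0.13 in tna1Δ, where 13 did. Their median was 0.09 both in pnc1Δ and with nicotinamide, with 14 and 15 members above wild type. None was called against wild type. The largest difference of any member from wild type was that of NOP16 with nicotinamide. NOP16, a constituent of large subunit precursors, gave 10.65 and 10.24 on the ML1 pair, 10.38 and 10.18 on the ML8 pair, and 10.77 and 10.72 with nicotinamide. It gave 10.40 and 10.16 in npt1Δ, 10.59 and 10.33 in pnc1Δ, 10.43 and 10.25 in bna1Δ, and 10.33 and 9.99 in tna1Δ. The nicotinamide arrays were the highest of the 14, and array A of ML1 came next. The difference was 0.38 ± 0.15 (SE; limma adjusted p = 0.119), or 1.30-fold, with a 95% interval from 0.05 to 0.71. In a fit with the letter as a block, described in the section on processing, NOP16 was called, as were 19% of all probe sets. Without array A of ML1 the difference was 0.48 and was called (limma adjusted p = 0.027), where 21% of all probe sets were called. Over all arrays left out in turn it lay between 0.32 and 0.48, with adjusted p from 0.027 to 0.352.

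NOP8 and NOP53, both needed to mature the large subunit RNA, were the members named for tna1Δ. NOP8 gave 10.14 and 9.63 on the ML1 pair, 9.85 and 9.61 on the ML8 pair, and 9.77 and 9.36 in tna1Δ, and its tna1Δ difference was -0.24 ± 0.20 (SE; limma adjusted p = 0.79). NOP8 further gave 9.74 and 9.28 in npt1Δ, 9.93 and 9.77 in pnc1Δ, 10.07 and 9.60 in bna1Δ, and 10.09 and 9.90 with nicotinamide. Array B of npt1Δ and of tna1Δ lay clearly below the wild-type range, and array B of bna1Δ lay just under its lower edge of 9.61. NOP53 gave 10.68 and 10.01 on the ML1 pair, 10.36 and 10.28 on the ML8 pair, 10.45 and 9.75 in tna1Δ, and 10.47 and 9.94 in bna1Δ. Its differences were -0.23 ± 0.25 in tna1Δ (SE; limma adjusted p = 0.809) and -0.13 ± 0.25 in bna1Δ (SE; limma adjusted p = 1). Each was negative only with array B in the pair: without array B, the NOP53 difference was 0.12 in tna1Δ and 0.13 in bna1Δ.

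The GTPases NOG1 and NOG2 followed the other members less closely across the arrays, with correlations of 0.479 and 0.579 with the mean of the rest. NOG1 gave 12.70 and 12.71 on the ML1 pair, 13.08 and 12.74 on the ML8 pair, and 13.18 and 12.85 in pnc1Δ. Its pnc1Δ difference was 0.21 ± 0.17 (SE; limma adjusted p = 0.631), and array A of ML8 stood above the other 3 wild-type arrays. NOG2 was the 1 member with a mean above wild type in npt1Δ, by 0.04 ± 0.17 (SE; limma adjusted p = 0.945), and had the lowest F, at 0.296. NOG2 gave 11.87 and 11.78 on the ML1 pair, 12.05 and 11.76 on the ML8 pair, 12.17 and 11.64 in npt1Δ, and 12.20 and 11.89 in pnc1Δ. In bna1Δ it gave 12.12 and 11.80, in tna1Δ 12.16 and 11.84, and with nicotinamide 12.04 and 11.74. In both genes array A of ML8, not of ML1, was the highest wild-type array.

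NOP7, the yeast homologue of pescadillo and a partner of ERB1 and YTM1, was the 1 member called between conditions. NOP7 gave 11.52 and 11.48 on the ML1 pair, 11.65 and 11.61 on the ML8 pair, and 11.47 and 11.37 in npt1Δ. It gave 11.75 and 11.69 in pnc1Δ, 11.47 and 11.57 in bna1Δ, 11.56 and 11.62 in tna1Δ, and 11.76 and 11.75 with nicotinamide. The pnc1Δ and nicotinamide arrays were the 4 highest of the 14, and npt1Δ array B was the lowest. NOP7 also had the highest F of the members, at 6.01 (limma adjusted p = 0.0558).

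NOP7 was 0.30 ± 0.07 higher in pnc1Δ than in npt1Δ (SE, 2 against 2 arrays; limma adjusted p = 0.0377), or 1.23-fold, with a 95% interval from 0.14 to 0.47. It was 0.34 ± 0.07 higher with nicotinamide than in npt1Δ (SE; limma adjusted p = 0.0158), or 1.26-fold, with a 95% interval from 0.18 to 0.50. These comparisons share the npt1Δ arrays, and called 6.02% and 9.04% of all probe sets in either direction, against 1 of 40 members in each. Of the 5498 probe sets, 69 and 291 were called higher, and 262 and 206 lower. The first call was kept when array A of ML1, array B of ML1 or array A of ML8 was left out, and lost without any of the other 11 arrays, with differences from 0.25 to 0.36 and adjusted p from 0.0291 to 0.254. It was also lost with each array centred on its median, at an adjusted p of 0.0852. The second call was lost without array B of npt1Δ (adjusted p = 0.121), without array A of nicotinamide (0.0712) and without array B of nicotinamide (0.0896). Both calls were lost in fits of only the groups compared, with adjusted p of 0.138 and 0.118.

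All 40 members had a higher mean in pnc1Δ than in npt1Δ, with a median difference of 0.24, and 38 had a higher mean with nicotinamide than in npt1Δ, with a median of 0.23. Of all probe sets 56.5% and 54.4% were higher, each with a median of 0.02. Without array B of npt1Δ the member medians were 0.08 and 0.11, without array A of npt1Δ 0.37 and 0.36, and without array A of pnc1Δ the first was 0.13. At an unadjusted p under 0.05 there were 4 and 6 members in these comparisons, all higher. Of all probe sets 16.3% and 22% passed in either direction, and 6.93% and 13.1% were higher. Besides NOP7, the members with the highest F were UTP22, RRP5, NOP16, DBP2 and NUG1. DBP2, a DEAD-box helicase, gave 13.51 and 13.52 on the ML1 pair, 13.49 and 13.34 on the ML8 pair, 13.35 and 13.25 in npt1Δ, and 13.61 and 13.49 in pnc1Δ. Its bna1Δ values were 13.47 and 13.45, in tna1Δ 13.43 and 13.38, and with nicotinamide 13.46 and 13.66. NUG1, a nucleolar GTPase, gave 12.88 and 12.72 on the ML1 pair, 12.72 and 12.82 on the ML8 pair, 12.81 and 12.55 in npt1Δ, and 13.02 and 12.82 in pnc1Δ. In bna1Δ NUG1 gave 12.80 and 12.70, in tna1Δ 12.74 and 12.71, and with nicotinamide 12.91 and 12.82. For both genes array B of npt1Δ was the lowest of the 14, while array A overlapped wild type.

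**Figure D2:**
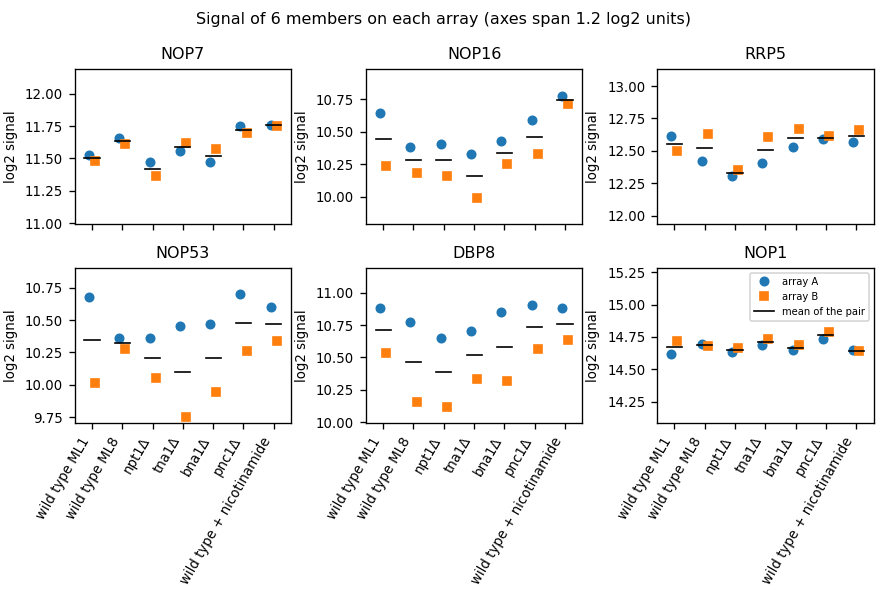
Log2 signal (vertical axes, each of the same span) of 6 members in the 7 groups (horizontal axes). Circles are arrays A, squares arrays B and black lines the mean of the pair. NOP7 is highest in pnc1Δ and with nicotinamide, RRP5 is lowest in npt1Δ, and for NOP53 and DBP8 array A lies above array B in all 7 groups, whereas NOP1 stays between 14.62 and 14.79.

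Between bna1Δ and tna1Δ none of the members was called, against 0.0364% of all probe sets, and none had an unadjusted p under 0.05. In bna1Δ 36 members had the higher mean, with a median difference of 0.10. So did 66.2% of all probe sets, with a median of 0.05. Without array B of tna1Δ the member median was -0.0040 with 20 members on each side, and without array A of tna1Δ it was 0.24. It was 0.04 without array A of bna1Δ and 0.20 without array B of bna1Δ. The widest were those of NOP8, at 0.27 ± 0.23 (SE; limma adjusted p = 0.776), and UTP9, given above. For NOP8 the tna1Δ pair was lower on both letters, yet array A of tna1Δ lay above array B of bna1Δ.

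The untreated wild-type pairs differed from each other as well. In ML8, 33 members had a lower mean than in ML1, with a median difference of -0.14, and none was called, against 0.0728% of all probe sets. Of all probe sets 55.1% lay lower in ML8, with a median of -0.02. At an unadjusted p under 0.05 limma passed none of the members either. IMP3 differed by -0.37 ± 0.21 (SE; limma adjusted p = 0.387) and RRP12, a factor in the export of both subunits, by -0.36 ± 0.19 (SE; limma adjusted p = 0.357). RRP12 gave 12.91 and 12.32 on the ML1 pair, 12.36 and 12.14 on the ML8 pair, 12.32 and 12.00 in npt1Δ, and 12.48 and 12.26 in pnc1Δ. In bna1Δ it gave 12.46 and 12.35, in tna1Δ 12.40 and 12.11, and with nicotinamide 12.54 and 12.61. The ML1 array A value was the highest of the 14. Without that array the median difference between the pairs was 0.03, and without array B of ML1 it was -0.32, with UTP4, UTP8, UTP20 and RRP12 called lower in ML8 where 20.6% of all probe sets were called.

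**Figure D3:**
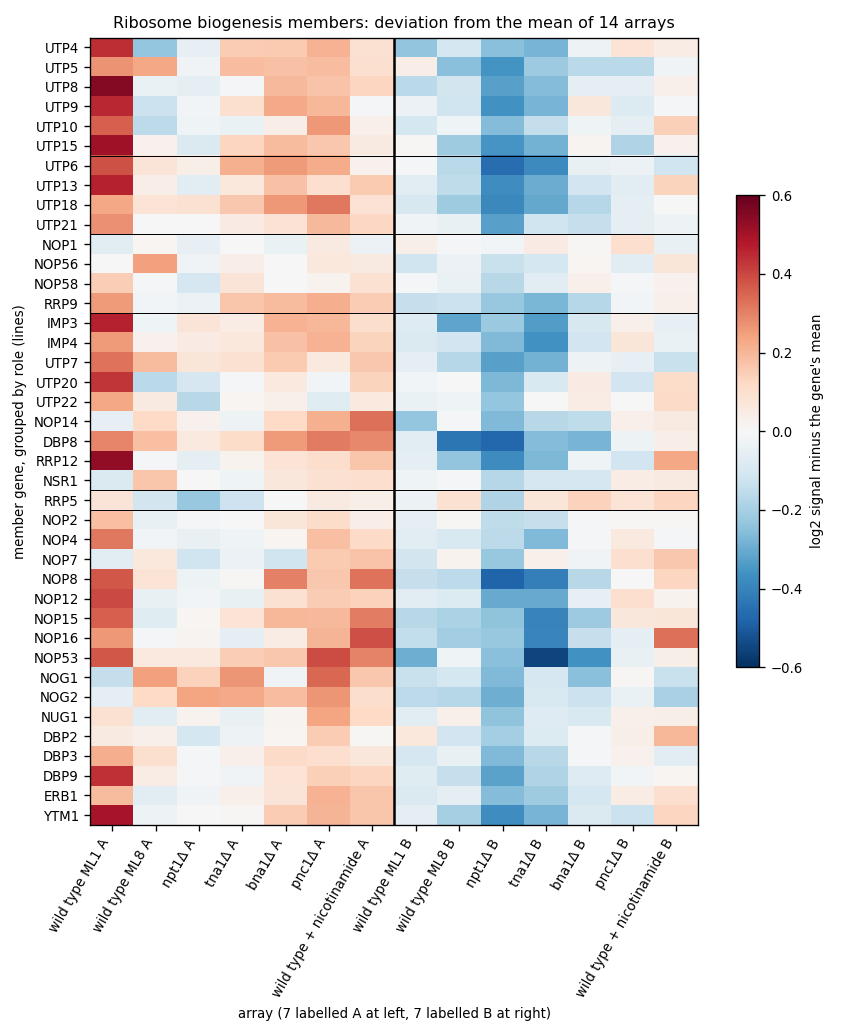
Deviation of each member's log2 signal from its mean over the 14 arrays (colour scale, red higher and blue lower, saturating at 0.6). Rows are the 40 members, with lines between roles, and columns are the 7 arrays lettered A (left of the thick line) and the 7 lettered B (right). Most cells are red among the A arrays and blue among the B arrays, with ML1 array A the reddest column and npt1Δ array B and tna1Δ array B the bluest. NOP1 and RRP5 do not follow the pattern.

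Of the contrasts run, the one that called the most members set the arrays lettered A against those lettered B. This contrast was added after the values had been seen, and was fitted with limma on all 7 groups with the letter as a further term. It called 22 of the 40 members, each higher on arrays A, where 8.38% of all probe sets were called in either direction. The median difference of the 40 members was 0.23, against -0.0073 over all probe sets. At an unadjusted p under 0.05, 32 of 40 members passed, against 24% of all probe sets. The number called depended on the pairs included. It was 9 without the npt1Δ pair, 9 without bna1Δ, 11 without tna1Δ and 12 without pnc1Δ. It was 18 without ML8, 22 without nicotinamide, 23 without ML1 and 20 without both wild-type pairs. The share of all probe sets called changed as well, in the same order 2.11%, 2.31%, 3.29%, 2.96%, 4.66%, 6.88%, 14.8% and 8.33%. The median member difference lay between 0.19 and 0.26 in these fits.

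Array A was the higher for 36 of 40 members in ML1, 32 in ML8, 38 in npt1Δ, 37 in pnc1Δ, 34 in bna1Δ, 37 in tna1Δ and 33 with nicotinamide. Over all probe sets array A was the higher for between 41.7% and 58.9%. The median member difference within a pair was 0.37 in ML1, 0.27 in npt1Δ, 0.27 in tna1Δ, 0.18 in bna1Δ, 0.16 in pnc1Δ, 0.13 in ML8 and 0.08 with nicotinamide. In all 7 pairs, 23 members were higher on array A, as were 6.51% of all probe sets.

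**Figure D4:**
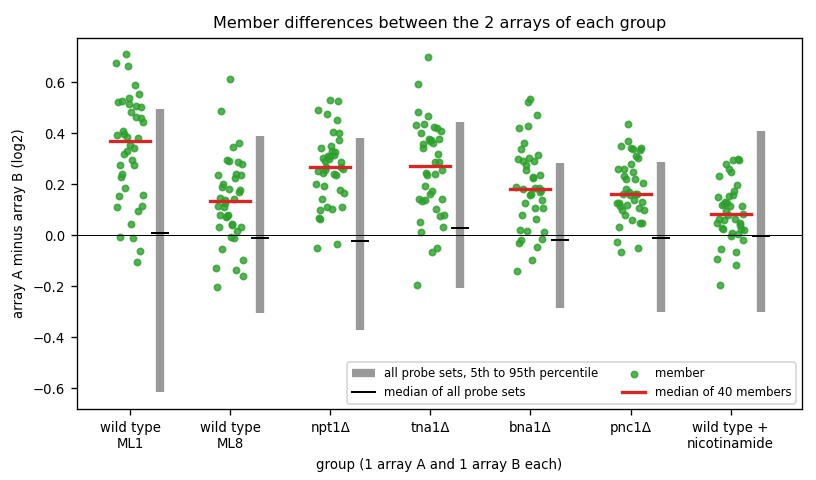
Array A minus array B (log2, vertical axis) for each of the 40 members in the 7 groups (horizontal axis), 1 array of each letter per group. Green points are members, red lines their medians, grey bars the 5th to 95th percentile of all probe sets and black lines the median of all probe sets. The member medians lie above 0 in all 7 groups, from 0.08 with nicotinamide to 0.37 in ML1.

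By role, all 4 UTP-B members were called on arrays A, with 2 of 6 in UTP-A, 1 of 4 box C/D and U3 proteins, 5 of 9 other small subunit factors and 10 of 16 large subunit members. DBP8, a DEAD-box helicase of the small subunit processome, was the widest. DBP8 gave 10.89 and 10.53 on the ML1 pair, 10.77 and 10.16 on the ML8 pair, 10.65 and 10.12 in npt1Δ, and 10.91 and 10.56 in pnc1Δ. DBP8 values in bna1Δ were 10.85 and 10.31, in tna1Δ 10.70 and 10.33, and with nicotinamide 10.88 and 10.63. Its lowest A array, at 10.65, lay above its highest B array, at 10.63. The difference was 0.43 ± 0.05 (SE, 7 pairs; limma adjusted p = 0.00688), or 1.35-fold.

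NOP53, NOP8 and UTP18 followed, at 0.43 ± 0.08, 0.35 ± 0.05 and 0.35 ± 0.05 (SE; limma adjusted p = 0.0181, 0.011 and 0.00995). Each was higher on array A in all 7 groups. The NOP53 call was lost without the npt1Δ, pnc1Δ or bna1Δ pair (adjusted p of 0.0543, 0.0596 and 0.0614). NOP1 and RRP5 had the opposite sign, at -0.04 ± 0.03 and -0.08 ± 0.04 (SE; limma adjusted p = 0.434 and 0.267). NOP7, at 0.01 ± 0.03, was close to level between the letters (SE; limma adjusted p = 0.856).

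Set against wild-type arrays of the same letter, the members of npt1Δ remained below on both. On arrays A, 37 of 40 lay below the mean of the wild-type arrays with a median of -0.16, and on arrays B all 40 did with a median of -0.19. Of all probe sets, 59.1% and 54.8% lay below. The control mattered on arrays A, where 23 of 40 lay below ML8 alone with a median of -0.04, and 35 lay below ML1 alone with a median of -0.29. In tna1Δ, 33 members lay below on arrays A (49.9% of all probe sets) and 34 on arrays B (63.1%), with medians of -0.08 and -0.11. On arrays A only 16 lay below ML8 alone. In pnc1Δ, 23 members lay above on arrays A (45.7% of all probe sets) and 35 on arrays B (51%). On arrays A 27 lay below ML1 alone and 5 below ML8 alone. The members' direction differed between the letters for nicotinamide. There 25 lay below on arrays A (52.3% of all probe sets) and 35 above on arrays B (47.9%). In bna1Δ, 24 of 40 lay below on arrays A, against 46.1% of all probe sets. On arrays B 24 of 40 lay above, close to the 62.7% of all probe sets. For nicotinamide the members' direction turned with the control pair. Against ML8 alone 10 lay below on arrays A and 4 on arrays B, with medians of 0.12 and 0.13. Against ML1 alone 31 lay below on arrays A and 7 on arrays B. For bna1Δ, 9 and 13 lay below ML8 alone on arrays A and B, and 33 and 20 lay below ML1 alone.

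The members moved together across the 14 arrays. The correlation of a member with the mean of the other 39 had a median of 0.886, from -0.329 for NOP1 to 0.962. RRP5 and NOP7 were also low, at 0.203 and 0.371. Against the mean of all members, 73 of 105 other ribosome biogenesis genes exceeded 0.8, or 69.5%, as did 4.42% of all probe sets. The corresponding share was 6 of 16 for RNA polymerase I genes and 1 of 128 for ribosomal protein genes, whose median r was -0.031. All of these points share the same 14 arrays and their group and letter structure, so the values are descriptive.

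The 105 other ribosome biogenesis genes followed the members. In npt1Δ, 97 of 105 lay below wild type with a median of -0.15, and none was called. In tna1Δ 87 lay below with a median of -0.13, in pnc1Δ 82 lay above with a median of 0.08, and none was called in these or in bna1Δ. With nicotinamide 2 of 105 rose, against 15.9% of all probe sets called: SRP40, a nucleolar chaperone, by 0.47 ± 0.11 (SE; limma adjusted p = 0.0142), and LOC1, a large subunit assembly factor, by 0.43 ± 0.12 (SE; limma adjusted p = 0.0354). SRP40 gave 11.22 and 10.94 with nicotinamide and 10.49 to 10.70 in wild type, without overlap. LOC1 gave 10.51 and 10.39 with nicotinamide and 9.89 to 10.14 in wild type. On arrays A, 54 of the 105 were called higher and none lower, the widest being BUD22 at 0.60 ± 0.08, DBP7 at 0.58 ± 0.07, FAL1 at 0.56 ± 0.09 and REI1 at 0.56 ± 0.06 (SE).

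**Figure D5:**
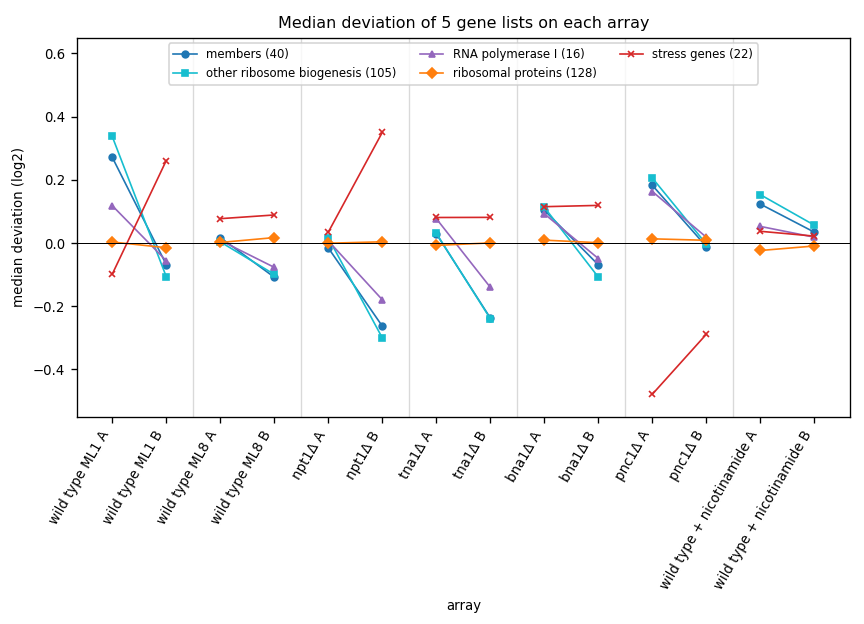
Median deviation of 5 gene lists from their gene means (log2, vertical axis) on each of the 14 arrays (horizontal axis), with lines joining arrays A and B of a group. The members and the other ribosome biogenesis genes run together, from 0.27 and 0.34 on ML1 array A to -0.26 and -0.30 on npt1Δ array B, RNA polymerase I genes move less, ribosomal protein genes stay between -0.02 and 0.02, and the stress genes are highest on npt1Δ array B at 0.35.

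Of the 16 genes for RNA polymerase I and its factors, none was called against wild type, and 3 were called higher on arrays A. These were RRN11, a core factor subunit, at 0.43 ± 0.06, RRN3, the initiation factor, at 0.28 ± 0.04, and UAF30, of the upstream activating factor, at 0.27 ± 0.05 (SE; limma adjusted p = 0.0095, 0.0134 and 0.0196). Ribosomal protein genes had medians near 0 in each comparison. RPS9A was called higher in npt1Δ, by 0.36 (limma adjusted p = 0.0287), and lower with nicotinamide, by -0.33 (limma adjusted p = 0.0176). No other gene of the 128 was called in these comparisons, against 4.2% and 15.9% of all probe sets. RPS9A has a near-identical copy, RPS9B. Its probe set is not of a shared design, but signal from RPS9B was not tested, so its values remain uncertain. The symbol pattern for this list also took in RPP1, a subunit of RNase P and RNase MRP, which was the 1 gene of the 128 called between the letters.

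Among 13 regulators of ribosome synthesis, FHL1, a transcription factor of ribosomal protein genes, fell by 0.63 with nicotinamide (SE 0.17; limma adjusted p = 0.0296), from between 7.76 and 8.04 in wild type to 7.18 and 7.36. It was the 1 regulator of the 13 called there, against 15.9% of all probe sets. DOT6, a repressor of ribosome biogenesis genes, was 0.58 ± 0.13 higher with nicotinamide than in npt1Δ (SE; limma adjusted p = 0.0246). No other regulator was called in that comparison, against 9.04% of all probe sets. TOD6, its paralogue, was 0.76 ± 0.07 higher on arrays A than on arrays B (SE; limma adjusted p = 0.00539), and IFH1, the coactivator of FHL1, was 0.33 ± 0.06 higher (SE; limma adjusted p = 0.0185). FHL1 and MAF1, a repressor of RNA polymerase III, were lower on arrays A, by -0.29 and -0.14 (limma adjusted p = 0.0155 and 0.0381). No regulator was called in npt1Δ, pnc1Δ, bna1Δ or tna1Δ against wild type.

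Of 22 genes known to rise in the yeast stress response, 5 were called lower in pnc1Δ, including the deleted PNC1 itself, where 2.24% of all probe sets were called. The others named were YGP1, a cell wall glycoprotein gene, at -2.67 ± 0.20, HXK1, a hexokinase gene, at -1.73 ± 0.24, and PGM2, a phosphoglucomutase gene, at -0.71 ± 0.13 (SE). With nicotinamide HSP12, TSL1 and YGP1 rose by 1.14, 0.96 and 0.79, and GRE3 fell by 0.24, a share of the 22 close to the 15.9% of all probe sets. In npt1Δ, YGP1 fell by 0.93 and no other gene of the list was called. On arrays A, the heat shock genes HSP42, HSP104 and SSA4 were called lower, by -0.73, -0.39 and -0.26. The median deviation of this list was highest on npt1Δ array B, at 0.35, and on ML1 array B, at 0.26, and lowest on pnc1Δ array A, at -0.48. On the same arrays the median deviation of the members was -0.26, -0.07 and 0.18. The part of stress gene levels or of the array letter in the member differences was not tested.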

How the data were processed

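Deposited log2 signals for 10928 probe sets on 14 Affymetrix Yeast 2.0 arrays were used as the authors gave them. The authors made them with GCRMA, per the submitters' processing notes, listed without a version. Probe sets matched to 1 S. cerevisiae gene, 5498 for 5449 genes, were tested. The background limit of an array was the 95th percentile of 1746 probe sets without a gene in the yeast reference. Arrays have no read depth, and their number limits the precision.

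Differences were fitted with limma 3.58.1 (lmFit, eBayes) in R 4.3.3, with the 4 wild-type arrays as 1 of 6 conditions, 8 residual and 2.01 prior degrees of freedom, and adjusted p under 0.05 as the call. Wild-type pairs were compared in a fit of 7 groups. Steps were tested on simulated data. In the main fit, p-values measure the spread between arrays of a condition, which includes differences between the letters and between the wild-type pairs. For arrays A against B, they measure how the A minus B difference varied over the 7 groups.

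Members and gene lists were chosen with earlier results of these data known. Values on every array were given for up to 4 called members per direction, otherwise the 2 with the widest difference, for the 6 highest and 2 lowest F values, and for the members with extreme mean signal. Of each other list up to 4 called genes were named. Alternatives were the control pair, the replicate letter, normalization, filters, moderation and left-out arrays. A planned promoter motif search was not run, and promoter sequence was not used here.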

Additional observations from a re-analysis of the deposited data

Results flagged for a closer look

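Among the 4 wild-type arrays, 6 of the 40 members had 1 array far from the other 3 by Dixon's test. Chance flags about 1 in 20, or about 2 of 40, if genes vary independently. The members moved together across the arrays, so the 6 are not separate events. Array A of ML1 was the high value for UTP8 at 11.82, UTP9 at 12.35, UTP21 at 12.05, NOP12 at 11.81 and ERB1 at 12.81. Array A of ML8 was the high value for NOG1 at 13.08. Of the genes outside the members, TIF6, which keeps the large subunit from joining early, was low on ML1 array A at 11.98, HXK1 was high on ML1 array B at 9.62, and NPT1 was high on ML1 array A at 12.54. In all, 9 of 90 genes tested were singled out.

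The effects on NOP7 differed between conditions by the test of the difference itself. Its effect against wild type was 0.30 higher in pnc1Δ than in npt1Δ and 0.34 higher with nicotinamide than in npt1Δ, and both differences share the npt1Δ arrays.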

How the results depend on the processing

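Against wild type, the counts of called members stayed at 0 in npt1Δ, pnc1Δ, bna1Δ and tna1Δ under every alternative run. With nicotinamide the count of 0 became 1 with ML1 alone as control (NOP7), where 16.2% of all probe sets were called, and 0 to 1 when single arrays were left out. The F test count of 0 became 1 with ML1 alone, 2 with ML8 alone, 1 with quantile normalization, 1 with a variance trend and 0 to 2 with arrays left out. Of all probe sets the F test called 14.9% with ML1 alone, 19.6% with ML8 alone, 16.2% with quantile normalization and 13.9% with the trend. For pnc1Δ against npt1Δ the count of 1 became 0 in a fit of only those groups, 0 with median centring and 0 to 1 with arrays left out. For nicotinamide against npt1Δ it became 0 in a fit of only those groups and 0 to 3 with arrays left out. The median member differences were less stable, and those that turned sign or moved most are given with the comparisons above. For ML8 against ML1 the count of 0 ranged from 0 to 4, and for arrays A against B the count of 22 ranged from 9 to 23, since leaving out 1 array removes its pair. With the replicate letter as a block, 1 member was called with nicotinamide (NOP16, adjusted p = 0.0109), 1 by the F test and 4 for nicotinamide against npt1Δ (RRP5, NOP7, NOP8 and NOP16), and the block changed no other count of members. Of all probe sets, 19%, 17.6% and 11.7% were called in these block fits. The letters were not taken as pairs in the main fit, since the labels do not explain them and not every group pair correlated. The A minus B differences correlated above 0.1 in 17 of 21 group pairs, with r from -0.232 to 0.593. All 4 exceptions involve ML1, and the group pairs without ML1 lay between 0.107 and 0.593. In deviations from its group mean, each of the 14 arrays correlated best, among other groups, with an array of its own letter. The 2 deviations of a group mirror each other, so this gives at most 7 separate outcomes. With the block, the median residual SD went from 0.192 to 0.102 for members and from 0.128 to 0.114 for all probe sets. The UTP9 difference in bna1Δ reversed to -0.060 with ML1 alone. NOP53 ranged from -0.39 to 0.13 in bna1Δ and from -0.58 to 0.12 in tna1Δ with arrays left out, and reversed without their arrays B. For named members, 609 of 648 alternatives kept direction and side of the threshold. Many of these left out an array outside the comparison, which cannot change the difference, so the count does not measure stability. Leaving out arrays also lowers their number, and in comparisons of groups it makes the letters unequal. The cause of these changes was not tested.

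Over all probe sets, the 231 calls in npt1Δ became 138 in a fit of only the groups compared. The 123 in pnc1Δ became 29 in that fit, 190 with ML1 alone and 240 with the replicate block, and ranged from 22 to 202 with arrays left out. In the fit of only the groups compared, 874 with nicotinamide became 533, 331 for pnc1Δ against npt1Δ became 191, and 497 for nicotinamide against npt1Δ became 149. With arrays left out, these 3 ranged from 458 to 1156, 163 to 491 and 262 to 798. The 747 of the F test ranged from 489 to 1170, the 4 for ML8 against ML1 from 1 to 1132, and the 461 between the letters from 116 to 813.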
